A study of Mus musculus with 13 samples.

Results

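Atp5a1, Uqcrh and Cpt2 are 3 of the 100 genes of a Molecular Cartography panel that was read in 13 sections of mouse liver regenerating after partial hepatectomy. Molecular Cartography is an imaging assay in which single RNA molecules of a chosen set of genes are located in a tissue section by repeated rounds of fluorescent hybridisation. The 3 genes were taken by symbol, from the table of counts per cell of every section and from the lists of transcript positions of 12 sections. All sections came from newly regenerated lobes of male C57BL/6 mice, 2 months old by the labels, that had lost 2/3 of the liver. The times after surgery were 0 h, 24 h, 48 h and 72 h with 2 sections each, 14 d with 3, and 3 mo and 6 mo with 1 each. The 2 sections at 24 h share 1 slide position and were summed to 1 library in the tests, which left 12 libraries. The labels do not say whether the sections of a time came from separate mice, so the p-values measure the spread between sections, which may be technical. The single libraries at 24 h, 3 mo and 6 mo were assumed to vary like those of the replicated times. At 3 mo and 6 mo, time since surgery and the age of the animal cannot be told apart. Both 24 h sections, both 48 h sections and the 3 mo section lay on slide 1, the 6 mo section lay on slide 2, and the 0 h and 72 h sections were split between these slides. Slide 3 held the 3 sections of 14 d and nothing else, and the time 14 d and that slide cannot be told apart.

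All 3 genes are encoded in the nucleus, and their proteins work at the inner mitochondrial membrane. Atp5a1 (now also named Atp5f1a) encodes the alpha subunit of the catalytic part of ATP synthase, complex V of oxidative phosphorylation. Uqcrh encodes the hinge subunit of the cytochrome bc1 complex, complex III, which passes electrons from ubiquinol to cytochrome c. Cpt2 encodes carnitine palmitoyltransferase 2, which turns long-chain acylcarnitines back into acyl-CoA on the matrix side so that they can enter beta-oxidation. In the liver lobule, hepatocytes near the portal vein, which receive the more oxygenated blood, are known for higher oxidative metabolism and those near the central vein for drug oxidation by enzymes such as Cyp2e1. After partial hepatectomy the remnant liver is known to store fat for a time and to use fatty acids as fuel while hepatocytes divide.

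The promoters of Uqcrh and Cpt2, the pair whose ratio gave the largest F statistic over the replicated times, are shown from RefSeq (GRCm38.p6), each from 250 bases before to 50 bases after the annotated start, on the minus strand of chromosome 4. The Uqcrh window is chr4:116075021-116075320 and the Cpt2 window is chr4:107923540-107923839. Capitals mark the letters CCGGAAG on either strand, the core that ETS-family factors such as GABPA, a regulator of many respiratory chain genes, are known to bind.

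Uqcrh: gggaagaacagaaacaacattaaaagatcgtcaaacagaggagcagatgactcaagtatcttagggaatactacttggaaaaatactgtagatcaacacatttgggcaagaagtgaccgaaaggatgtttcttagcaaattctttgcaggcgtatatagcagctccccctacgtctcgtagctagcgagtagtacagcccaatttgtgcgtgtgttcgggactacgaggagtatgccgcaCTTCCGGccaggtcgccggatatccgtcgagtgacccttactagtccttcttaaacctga
Cpt2: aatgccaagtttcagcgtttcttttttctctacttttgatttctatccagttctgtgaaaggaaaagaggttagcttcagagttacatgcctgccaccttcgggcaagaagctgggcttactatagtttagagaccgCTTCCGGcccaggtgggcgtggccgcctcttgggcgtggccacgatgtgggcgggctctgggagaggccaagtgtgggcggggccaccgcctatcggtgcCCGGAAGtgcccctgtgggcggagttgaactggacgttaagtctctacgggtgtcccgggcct

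Uqcrh held these letters once, at bases 241 to 247 of the window and on the opposite strand, and Cpt2 held them at bases 138 to 144 on the opposite strand and at bases 238 to 244. They occur on either strand in 8.86% of the 32851 mouse promoter windows of the same length. These are matches of letters and say nothing of binding.

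The sections held 131221 outlined cells with 55744933 counted transcripts, from 1678015 to 9619206 per section, and any pair of sections shared at most 2 cell names. Atp5a1 gave 2272541 counts in cells, between 49586 and 479768 per section. Cpt2 gave 335556, between 10235 and 57169 per section, and Uqcrh gave 61029, between 1065 and 12541. Detection depends on the probes of each gene, so that the genes' levels are not compared with each other here and only their changes are. Cyp2e1, a hepatocyte enzyme, made up 7.96% to 34.3% of the counts of a library, lowest at 48 h and highest at 0 h. Levels are therefore given first as CPM, a gene's counts relative to a library total that TMM factors rescale to discount such dominant genes, and then on other scales.

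On the TMM scale Uqcrh was the member whose level differed among the 7 times, Cpt2 was highest at 72 h, and no difference passed the test for Atp5a1. Uqcrh had 1163 and 1149 CPM at 0 h, 996 CPM at 24 h, 1524 and 1499 CPM at 48 h. It then had 855 and 720 CPM at 72 h, 794, 1174 and 993 CPM at 14 d, 1212 CPM at 3 mo and 423 CPM at 6 mo. Both 48 h sections lay above every other library and the 6 mo section lay below every other. In edgeR's quasi-likelihood test with Benjamini-Hochberg adjustment over 99 genes, Uqcrh differed among the times (adjusted p = 0.0189), in a fit that called 65.7% of the genes. At 6 mo its log2 fold change against 0 h was -1.45 ± 0.42 (SE, adjusted p = 0.0201, edgeR). In that comparison 12.1% of the genes were called lower. Scaled by the number of cells the fold was -1.50 with an adjusted p of 0.0627, and with the 3 sections at 14 d taken as 1 library it was -1.30 with an adjusted p of 0.108 (edgeR). At 6 mo Uqcrh also fell by 1.22 ± 0.40 on the log2 scale against 14 d (adjusted p = 0.0252, edgeR), where 15.2% of the genes were called lower, and the slides of both times differ. Without section 2 or 3 at 14 d this call was lost, with adjusted p-values of up to 0.0743.

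The 48 h level of Uqcrh stood at a log2 difference of 0.39 ± 0.32 from 0 h (SE, adjusted p = 0.408, edgeR), against 11.1% of the genes called higher. Between 72 h and 48 h the difference was -0.94 ± 0.32 (adjusted p = 0.0729, edgeR), which missed the threshold of 0.05, while 2.02% of the genes were called lower. The sections had 720 to 855 CPM at 72 h and 1499 to 1524 CPM at 48 h. How many other genes part in this way between 2 and 2 sections was not counted. DESeq2 called the Uqcrh difference of 72 h from 48 h (-0.96, adjusted p = 0.00244), and the share of all genes it called was not counted. At 24 h, 72 h, 14 d and 3 mo the differences of Uqcrh from 0 h lay between -0.55 and 0.07, with edgeR adjusted p-values of 0.251 or more.

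Cpt2 had 6238 and 6619 CPM at 0 h, 6434 CPM at 24 h, 6774 and 5462 CPM at 48 h. At the later times it had 8927 and 8096 CPM at 72 h, 3905, 5352 and 5323 CPM at 14 d, 5366 CPM at 3 mo and 4061 CPM at 6 mo. The 2 sections at 72 h were above all others, and the lowest was a 14 d section. At 14 d Cpt2 fell by 0.81 ± 0.23 on the log2 scale against 72 h (SE, adjusted p = 0.0143, edgeR), where 17.2% of the genes were called lower. With total counts in place of TMM factors the difference was -0.49 (adjusted p = 0.104), and per cell it was -0.27 (adjusted p = 0.513). Without 72 h section 1 or 14 d section 1 the adjusted p rose to up to 0.13. Against 0 h, Cpt2 stood at 0.40 ± 0.26 at 72 h (adjusted p = 0.321, edgeR), where 9.09% of the genes were called higher, and at -0.66 ± 0.33 at 6 mo (adjusted p = 0.141). Over all 7 times its adjusted p was 0.0529.

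Atp5a1 had 34561 and 44304 CPM at 0 h, 30518 CPM at 24 h, 34983 and 24402 CPM at 48 h. It had 35480 and 42755 CPM at 72 h, 36039, 44913 and 43492 CPM at 14 d, 36005 CPM at 3 mo and 42129 CPM at 6 mo. Replicates of a time spread about as widely as the times did, and the sections of each replicated time overlapped with those at 0 h. Its largest difference from 0 h in size was -0.41 ± 0.26 at 48 h (SE, adjusted p = 0.274, edgeR), and over all times its adjusted p was 0.456. Of the 18 comparisons of the 3 genes with 0 h, the one of Uqcrh at 6 mo passed on this scale, in a fit that called 22.2% of the genes at 24 h and 23.2% at 48 h. It called 15.2% of them at 72 h and 28.3% at 14 d, and then 0% at 3 mo beside 23.2% at 6 mo.

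**Figure D1:**
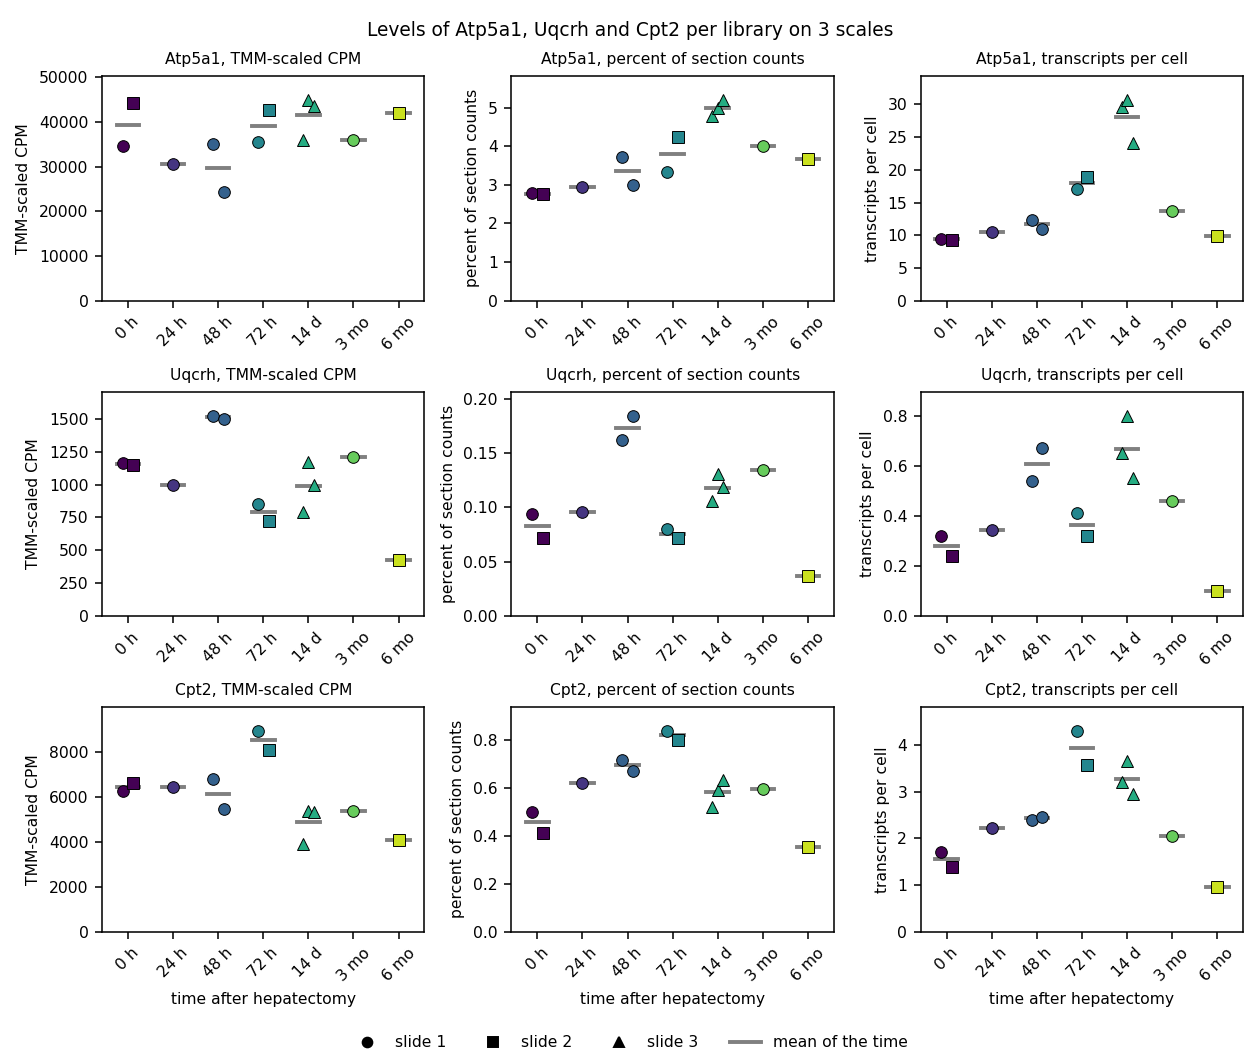
Levels of Atp5a1, Uqcrh and Cpt2 (rows) per library on 3 scales (columns: TMM-scaled CPM, percent of the section's counts, transcripts per outlined cell) against time after hepatectomy, with marker shape for slide and a grey line for the mean of a time. On the TMM scale Uqcrh reached 1524 CPM at 48 h and 423 CPM at 6 mo and Cpt2 reached 8927 CPM at 72 h, while per cell all 3 genes were higher at 14 d than at 0 h.

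The choice of scale moved all 3 genes together. With total counts in place of TMM factors, the median gene shifted by 0.74 on the log2 scale at 14 d against 0 h and by 0.67 at 48 h, and per cell it shifted by 1.47 at 14 d and by 0.91 at 72 h. As a share of all counts Atp5a1 made up 4.99% ± 0.20 at 14 d and 2.77% ± 0.016 at 0 h (SD, n = 3 and 2). On that scale Atp5a1 rose by 0.85 ± 0.17 at 14 d (SE, adjusted p = 0.00312, edgeR on total counts), in a comparison that called 37.4% of the genes higher. Cpt2 rose by 0.85 ± 0.22 at 72 h (adjusted p = 0.0271, 26.3% of the genes higher) and Uqcrh by 1.07 ± 0.29 at 48 h (adjusted p = 0.0189, 40.4% of the genes higher). The Uqcrh call at 6 mo held on this scale, at -1.16 ± 0.37 (adjusted p = 0.0487), where 7.07% of the genes were called lower.

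Per outlined cell the 3 genes were higher at 14 d than at 0 h in every section, as were most genes of the panel. Atp5a1 averaged 29.7, 30.7 and 24.1 transcripts per cell at 14 d, against 9.48 and 9.33 at 0 h. Cpt2 averaged 3.21, 3.65 and 2.95 per cell at 14 d, against 1.71 and 1.39 at 0 h, and Uqcrh averaged 0.653, 0.802 and 0.551 at 14 d, against 0.319 and 0.242 at 0 h. Scaled by cell number these were log2 differences of 1.58 ± 0.24, 1.08 ± 0.30 and 1.25 ± 0.36 for Atp5a1, Cpt2 and Uqcrh (SE, adjusted p = 0.000117, 0.00611 and 0.00735, edgeR). In that comparison 75.8% of the genes were called higher, so that the members' share stands near the background. All transcripts of a cell together had medians of 470 to 632 at 14 d and of 314 to 317 at 0 h. At 72 h Cpt2 averaged 4.30 and 3.58 per cell and Atp5a1 17.1 and 18.9 per cell, with log2 differences from 0 h of 1.34 ± 0.32 and 0.94 ± 0.25 (adjusted p = 0.00686 and 0.00859, edgeR), where 38.4% of the genes were called higher. At 6 mo the averages were 9.91 for Atp5a1, 0.955 for Cpt2 and 0.0994 for Uqcrh, and all 3 were called lower than at 14 d (adjusted p = 0.00215, 0.00349 and 0.00134, edgeR), as were 61.6% of the genes. The 6 mo section had the lowest median count per cell of the 13 sections, 231, and the fewest transcripts per square tile of tissue of the 12 with positions, 3615, and the part of this depth in its values was not tested. Whether cells of another make-up or more RNA in each cell stand behind a level of a whole section cannot be told apart from such averages.

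Ratios of one member to another within a section do not depend on any of these scales, and all 3 ratios differed among the replicated times. Cpt2 per Uqcrh is the quotient of the other 2 ratios, so that the 3 are not separate results. Ratios of other genes were not tested, and 65.7% of the genes were called over the 7 times on the TMM scale (edgeR). A ratio that differs is therefore not shown to be particular to these genes. Cpt2 per Uqcrh transcript was 5.36 and 5.76 at 0 h, 5.70 and 7.91 at 24 h, 4.44 and 3.64 at 48 h. It was 10.4 and 11.2 at 72 h, 4.92, 4.56 and 5.36 at 14 d, 4.43 at 3 mo and 9.61 at 6 mo. The 2 sections at 72 h stood above every other section and the 2 sections at 48 h were among the 3 lowest, with the 3 mo section. In geometric means the ratio at 72 h was 2.69-fold that at 48 h and 1.95-fold that at 0 h. An exact permutation test of the F statistic over the 9 sections at 0 h, 48 h, 72 h and 14 d (7560 assignments) gave p = 0.00238, and 0.00714 after Benjamini-Hochberg adjustment over the 3 ratios. On slide 1 the ratio was 10.4 at 72 h against 5.36 at 0 h, and on slide 2 it was 11.2 at 72 h against 5.76 at 0 h.

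Uqcrh per 100 Atp5a1 transcripts was 3.37 and 2.59 at 0 h, 3.72 and 2.64 at 24 h, 4.36 and 6.14 at 48 h. The ratio was 2.41 and 1.69 at 72 h, 2.20, 2.61 and 2.28 at 14 d, 3.37 at 3 mo and 1.00 at 6 mo. Both 48 h sections were above all others, and the 6 mo section was below all others. The exact permutation test gave an adjusted p of 0.0135, and without 48 h section 2 the adjusted p was 0.0536. On slide 1 the ratio was 4.36 and 6.14 at 48 h and 2.41 at 72 h, against 3.37 at 0 h, and on slide 2 it was 1.69 at 72 h and 1.00 at 6 mo, against 2.59 at 0 h.

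Cpt2 per 100 Atp5a1 transcripts was 18.1 and 14.9 at 0 h, 21.2 and 20.9 at 24 h, 19.4 and 22.4 at 48 h. This ratio was 25.2 and 18.9 at 72 h, 10.8, 11.9 and 12.2 at 14 d, 14.9 at 3 mo and 9.64 at 6 mo. All 6 sections from 24 h to 72 h were above both 0 h sections, and the 3 sections at 14 d and the one at 6 mo were below them. The 3 mo section was also below both, by little (14.90 against 14.94 in 0 h section 2). The exact permutation test gave an adjusted p of 0.0135. The geometric mean at 14 d was lower than that at 72 h by 0.91 and lower than that at 0 h by 0.50 on the log2 scale, and the 14 d sections lay on a slide of their own. Within slide 1 the values at 24 h, 48 h and 72 h were 19.4 to 25.2, against 18.1 at 0 h, and within slide 2 they were 18.9 at 72 h and 9.64 at 6 mo, against 14.9 at 0 h.

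**Figure D2:**
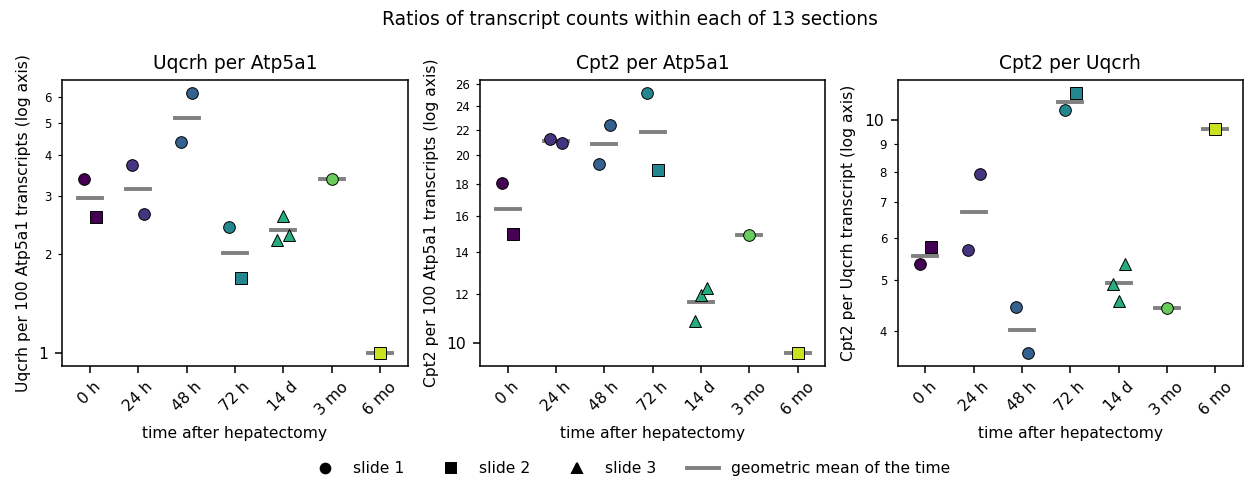
Ratios of transcript counts in cells of each of the 13 sections against time after hepatectomy, on log axes, with marker shape for slide and a grey line for the geometric mean of a time. Cpt2 per Uqcrh reached 10.4 and 11.2 at 72 h against 3.64 to 5.76 in the sections at 0 h and 48 h, and Uqcrh per 100 Atp5a1 reached 6.14 at 48 h and 1.00 at 6 mo.

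Along the lobule the 3 genes differed in position in every library. Squares of tissue (tiles) were ranked in each of 12 sections from portal to central by zoned genes other than the members, 9 central and 6 portal, and split into 3 bins of equal size, and a gene's share of the transcripts in the central bin was divided by its share in the portal bin. The log2 ratio of Atp5a1 was -1.97 and -1.36 at 0 h, -0.70 and -0.98 at 24 h, -0.83 and -0.75 at 48 h. The ratio of Atp5a1 then was -1.53 and -1.35 at 72 h, -1.01 and -0.92 at 14 d, -1.69 at 3 mo and -1.83 at 6 mo. It was below 0, on the portal side, in all 12 sections, with a mean of -1.28 ± 0.43 over 11 libraries (SD, adjusted p = 0.00146, exact sign-flip permutation test over the 3 genes). Most of the 62 genes placed in this way also had a median below 0, as the ranks below show. In the 0 h sections Atp5a1 made up 51.0 and 44.4 of 1000 transcripts in the most portal of 5 bins of tiles and 11.3 and 14.9 in the most central one.

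Uqcrh leaned the same way by less. Its log2 ratio was -1.32 and -0.73 at 0 h, -0.25 and -0.37 at 24 h, -0.36 and -0.49 at 48 h. Later it was -0.97 and -0.93 at 72 h, -0.63 and -0.61 at 14 d, -1.26 at 3 mo and -1.11 at 6 mo. The mean was -0.79 ± 0.35 (SD, n = 11 libraries, adjusted p = 0.00146, exact sign-flip permutation test), and it turned to 0.07 (adjusted p = 0.116) when Cyp2e1, which fills the central tiles, was taken out of the totals. Counted per tile, with no totals, the mean was -0.65 and was below 0 in 11 of 11 libraries.

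Cpt2 showed no such lean on the main scale. Its log2 ratio was -0.47 and -0.18 at 0 h, 0.64 and 0.58 at 24 h, 0.13 and 0.22 at 48 h. For Cpt2 it was -0.35 and -0.24 at 72 h, -0.04 and 0.05 at 14 d, -0.21 at 3 mo and -0.26 at 6 mo. The mean was -0.07 ± 0.31 (SD, n = 11, adjusted p = 0.482, exact sign-flip permutation test). Without Cyp2e1 in the totals the mean of Cpt2 was 0.80 and above 0 in 11 of 11 libraries (adjusted p = 0.00146), that of Atp5a1 was -0.42 and below 0 in 11 of 11, and per tile the means were 0.08 for Cpt2 and -1.14 for Atp5a1. The difference between 2 genes in one section is free of the totals. Cpt2 lay further to the central side than Atp5a1 by 1.22 ± 0.24 and than Uqcrh by 0.73 ± 0.17, and Uqcrh further than Atp5a1 by 0.49 ± 0.14 (log2, SD), each in 11 of 11 libraries (p = 0.000977, the smallest that sign flips of 11 values can give, exact permutation test). From the most portal of 62 genes, by the median over sections, Atp5a1 ranked 20, Uqcrh 26 and Cpt2 38, with medians of -1.18, -0.68 and -0.11. The gene at rank 38 was still below 0, so that a value below 0 was the common case in the panel. The tests against 0 therefore do not set a member apart from the other genes. Medians of the 62 genes ran from -5.05 (Hsd17b13) to 7.68 (Cyp2e1). How many other pairs of these genes differ in every library was not counted. The pairwise differences are therefore not shown to be particular to the members.

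**Figure D3:**
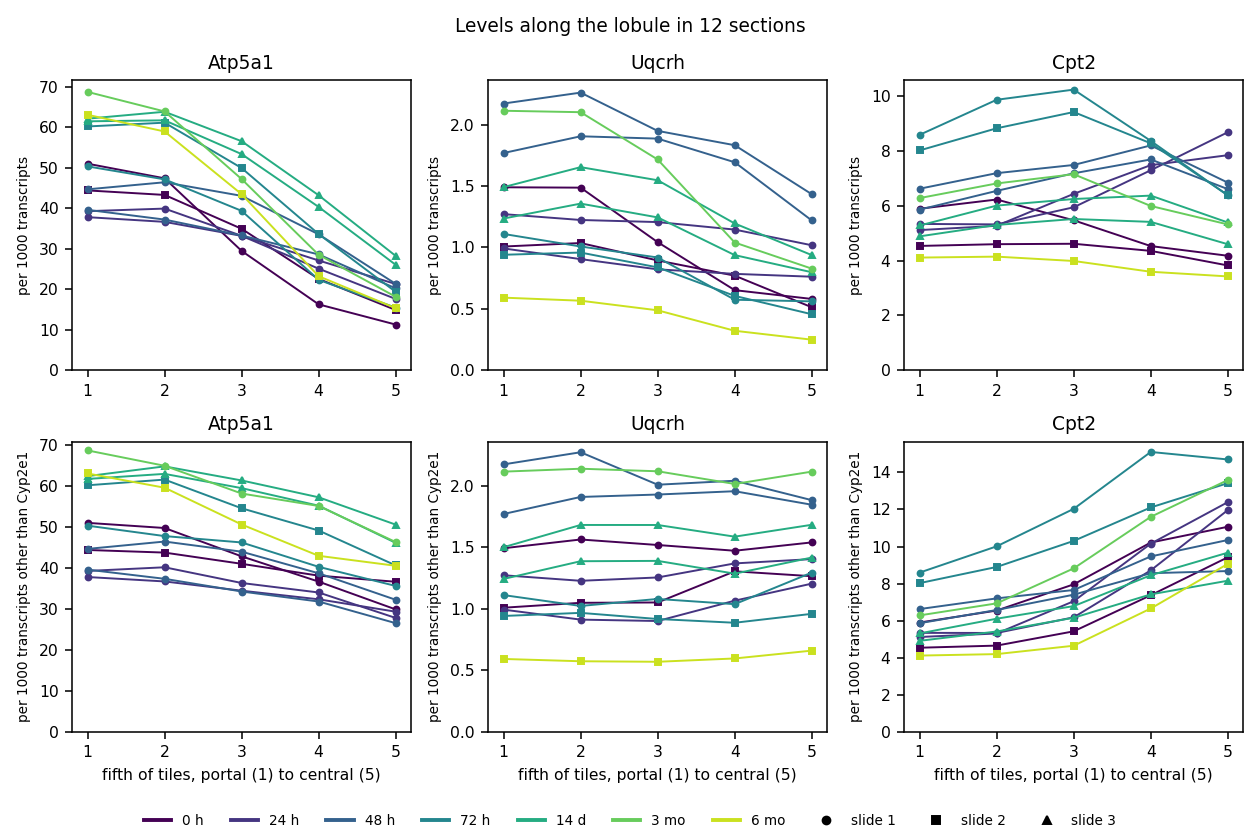
Transcripts of Atp5a1, Uqcrh and Cpt2 per 1000 transcripts (upper row) and per 1000 transcripts other than Cyp2e1 (lower row) in 5 bins of the tiles ranked from portal (1) to central (5), a line per section, coloured by time, with marker shape for slide. Atp5a1 declined toward the central bin in both rows, Uqcrh declined in the upper row and had no common direction in the lower one, and Cpt2 was higher in the central than in the portal bin in every section of the lower row.

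In all 3 genes both sections at 24 h, both at 48 h and both of those measured at 14 d had a log2 ratio above both 0 h sections, on the central side of them. The same was true of 48.4% of the 62 genes at 24 h, 67.7% at 48 h and 54.8% at 14 d. Against 0 h, limma called the ratio of Atp5a1 at 48 h, 0.87 ± 0.26 less portal on the log2 scale (SE, adjusted p = 0.0417 over 62 genes), where 33.9% of the genes were called higher. That difference was 0.03 (adjusted p = 0.956) without Cyp2e1 in the totals and 0.27 (adjusted p = 0.575) per tile, and it missed the threshold when any of 7 sections was left out, with adjusted p-values of up to 0.142. Cyp2e1 made up 7.96% and 8.87% of all counts in the sections at 48 h, against 34.3% and 26.7% at 0 h. None of the other 17 comparisons of the members passed. Without 0 h section 2, the less portal of the 0 h pair, all 3 genes were called at both 24 h and 48 h (adjusted p = 0.0214 each at 24 h, and 0.00768, 0.0101 and 0.0287 for Atp5a1, Uqcrh and Cpt2 at 48 h, limma), with the remaining 0 h section assumed to vary like those of other times. In that fit 37.1% of the genes were called higher at 24 h and 61.3% at 48 h. Without 0 h section 1 none of the 3 was called at these times, with adjusted p-values of 0.0851 to 0.272 (limma). Of the 62 genes, 6.45% were called in either direction at 24 h and 35.5% at 48 h, then 3.23% at 72 h and 19.4% at 14 d, and 0% at 3 mo beside 4.84% at 6 mo. Cpt2 at 24 h had the largest difference of these in size, with both sections above 0 and a value of 0.94 ± 0.26 from 0 h (adjusted p = 0.115, limma), where 3.23% of the genes were called higher. In the most central of the 5 bins Cpt2 made up 8.68 and 7.85 of 1000 transcripts at 24 h, against 4.18 and 3.82 at 0 h, and in the most portal one 5.34 and 5.12 at 24 h, against 5.89 and 4.54 at 0 h. With Spearman correlations across all tiles in place of 3 bins, the shift of Cpt2 at 24 h was called (1.06 on the scale of Fisher's z, adjusted p = 0.000198, limma). The share of all genes called in that fit was not counted. Over the alternative settings that kept every section, this shift ranged from 0.21 to 1.06, with adjusted p-values of up to 0.617 (limma). Without Cyp2e1 in the totals Cpt2 reached 12.0 and 12.4 of 1000 in the most central bin at 24 h, against 11.1 and 9.42 at 0 h.

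Cells that carried transcripts of genes of other liver cell types held larger shares of the 3 genes. Cells with at least 2 transcripts of Pecam1, an endothelial adhesion molecule, of Adgre1, the macrophage antigen F4/80, or of Lrat, which forms retinyl esters in stellate cells, were set against cells with none of these transcripts. Such cells still hold many hepatocyte transcripts, so that they are named by the marker and not as a cell type. In 0 h section 1, Uqcrh made up 1.62 of 1000 transcripts in the 684 cells with Adgre1, against 0.757 in the 5549 cells with none. In the 6 mo section it made up 0.821 of 1000 in the 523 cells with Adgre1, against 0.239 in the 5303 cells with none. Over 12 libraries Uqcrh was higher in marker-carrying cells by 0.98 ± 0.31 (Pecam1), 1.17 ± 0.30 (Adgre1) and 0.94 ± 0.31 (Lrat) on the log2 scale (SD). Atp5a1 was higher by 0.58 ± 0.17, 0.71 ± 0.18 and 0.56 ± 0.20 in the same order of markers, and Cpt2 by 0.22 ± 0.12, 0.24 ± 0.12 and 0.25 ± 0.13. The marker-carrying cells gave ratios above 0 in every library for 42.4% (Pecam1), 37.3% (Adgre1) and 40.7% (Lrat) of 59 genes of the panel, the markers aside. The median of the 59 means was 0.22, 0.24 and 0.25 in the same order, so that the means of Cpt2 stand at or next to the median of the panel. Each of the 9 values was above 0 in 12 of 12 libraries (adjusted p = 0.000488 over 9 pairs, the smallest that sign flips of 12 values can give, exact permutation test). With Cyp2e1 out of the totals Cpt2 in cells with Adgre1 stood at 0.06 (adjusted p = 0.0615), and the other 8 stayed past the threshold.

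Other genes measured the same way show what moves with this. Among 7 hepatocyte genes, the mean log2 ratio in cells with Pecam1 was -0.37 for Cyp2e1, -0.15 for the urea cycle enzyme Cps1, -0.12 for Ass1, -0.02 for Arg1, 0.04 for Pon1, 0.33 for Apom and 0.99 for the central glutamine synthetase Glul. In cells with Adgre1 the means were -0.79 for Cyp2e1, -0.11 for Cps1, -0.045 for Ass1, 0.014 for Arg1, 0.057 for Pon1, 0.15 for Glul and 0.45 for Apom, a lipoprotein gene. In cells with Lrat they were -0.39 for Cyp2e1, -0.14 for Cps1, -0.079 for Ass1, -0.0075 for Arg1, 0.086 for Pon1, 0.33 for Apom and 0.60 for Glul. Ndufb10, a complex I subunit in the panel that was added after it was seen there, stood at 0.73, 0.84 and 0.69 in cells with Pecam1, Adgre1 and Lrat. Marker-carrying cells were shallower, with median counts of 193 to 537 over the libraries, against 286 to 728 in cells with none, and the part of depth, of position in the lobule and of transcripts from neighbouring cells was not tested.

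**Figure D4:**
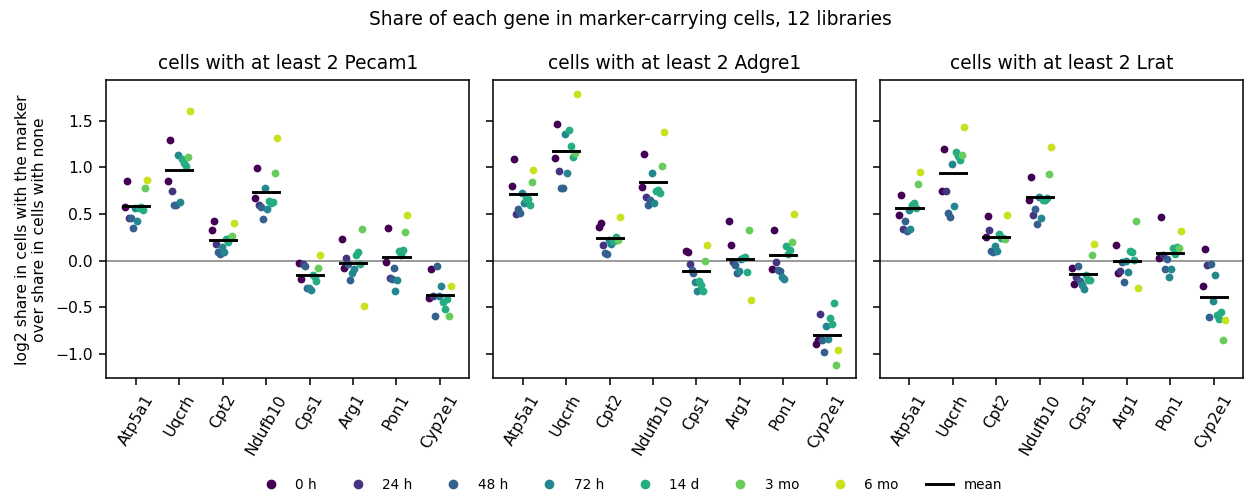
Log2 of a gene's share among the transcripts of cells with at least 2 transcripts of Pecam1, Adgre1 or Lrat over its share in cells with none of the 3, a point per library coloured by time and a black line for the mean of 12 libraries. All points of Atp5a1, Uqcrh and Cpt2 lie above 0, with means of 0.58, 0.98 and 0.22 in cells with Pecam1, while those of Cps1 and Arg1 lie around 0 and most of those of Cyp2e1 below it. The hepatocyte genes Glul, Apom and Ass1 are not drawn, with means of 0.99, 0.33 and -0.12 in cells with Pecam1.

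At least 1 transcript of Atp5a1 was found in 94.6% to 98.8% of the cells of a section, of Cpt2 in 54.6% to 93.1% and of Uqcrh in 9.07% to 50.5%, and these shares follow depth. The median cell held 8 Atp5a1 transcripts in both 0 h sections, and the 10% and 90% quantiles in section 1 were 2 and 19. After each cell was thinned to 100 transcripts, which left out 2.86% to 17.0% of the cells of a section, Uqcrh was found in 15.2% and 16.8% of cells at 48 h and in 8.42% and 7.05% at 72 h, against 9.96% and 8.08% at 0 h. Thinned in the same way, Cpt2 was found in 56.2% and 55.3% of cells at 72 h, against 40.8% and 34.8% at 0 h. Thinning evens out depth but not the share of Cyp2e1, so that these values follow total counts. With total counts in place of TMM factors the median gene shifted by 0.67 at 48 h and by 0.42 at 72 h against 0 h (log2). On the TMM scale Uqcrh at 48 h and Cpt2 at 72 h were not called against 0 h (adjusted p = 0.408 and 0.321, edgeR).

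The panel held 6 other genes of a list of mitochondrial products, namely Cps1 (urea cycle), Oat (ornithine breakdown), Gls2 (glutaminase), Prodh (proline oxidation), Cyp27a1 (sterol oxidation) and Cpox (heme synthesis). In the TMM fit against 0 h, 1 of the 6 was called higher and 1 lower at 24 h (Oat and Cyp27a1), 3 lower at 48 h (Cps1, Cyp27a1 and Prodh), 2 lower at 72 h (Cps1 and Cyp27a1), 2 lower at 14 d (Cpox and Cps1), none at 3 mo and 2 lower at 6 mo (Cpox and Cyp27a1). At 24 h, 15.2% of all genes were called higher. The shares of all genes called lower were 7.07% at 24 h and 12.1% at 48 h, then 6.06% at 72 h and 13.1% at 14 d, and again 12.1% at 6 mo. The median log2 change of the 6 genes was -0.22 at 24 h (-0.090 over all 99 genes), -0.21 at 48 h (0.21 over all) and -0.48 at 72 h (0.12 over all). It was -0.046 at 14 d (0.074 over all), 0.13 at 3 mo (-0.023 over all) and -0.84 at 6 mo (-0.15 over all). Per cell 7 calls were higher and 0 lower over the 6 times, namely Oat at 24 h and 48 h, Cpox at 72 h and 4 genes at 14 d. On that scale 18.2% of all genes were called higher at 24 h and 32.3% at 48 h, then 38.4% at 72 h and 75.8% at 14 d. Ndufb10 had 3483 to 5025 CPM at 0 h, 2312 CPM at 6 mo and 4415, 5713 and 5065 CPM at 14 d, and like Uqcrh it was called lower at 6 mo than at 14 d (-1.13 ± 0.34, SE, adjusted p = 0.0157, edgeR). Against 0 h its difference at 6 mo was -0.88 ± 0.35 (adjusted p = 0.0789, edgeR).

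Over the 12 libraries the genes whose log2 CPM ran most like that of Uqcrh were Igf1, a growth factor made by hepatocytes (Pearson r = 0.89), Rgn, or regucalcin (0.79), and Lgr4, an R-spondin receptor (0.70), of 98 genes compared. Those most like Cpt2 were Cpox (0.82) and Alad (0.82), both of heme synthesis, and Elovl2, a fatty acid elongase (0.63). Those most like Atp5a1 were Ptprc, the leukocyte antigen CD45 (0.78), and the Wnt ligands Wnt10b (0.77) and Wnt10a (0.75). Wnt10b had only 2 to 81 counts in the cells of a section, so that its value rests on few counts. The members ran less alike, with r of 0.28 between Uqcrh and Cpt2, -0.43 between Atp5a1 and Uqcrh and -0.04 between Atp5a1 and Cpt2. All values rest on the same 12 libraries and TMM factors and are given as a description.

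Across the tiles within a section, the median Spearman correlation over 12 sections was highest for Atp5a1 with Fbp1, a gluconeogenic enzyme (0.84), Hsd17b13, a lipid droplet protein (0.81), and Apof (0.79). Uqcrh ran most like Apom (0.44), Atp5a1 (0.43) and Apof (0.42), and Cpt2 most like Fads1, a fatty acid desaturase (0.30), Atp5a1 (0.28) and Ccnd1, cyclin D1 (0.26). Over the sections the values of Cpt2 ran from 0.18 to 0.59 with Fads1, from -0.47 to 0.58 with Atp5a1 and from -0.06 to 0.37 with Ccnd1. The median over all pairs of 62 genes was 0.08. Tiles of a section share depth and totals, and low counts limit these values for Uqcrh, which had 1.54 to 11.5 transcripts per tile, against 13.8 to 53.3 for Cpt2 and 139 to 429.2 for Atp5a1.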

How the data were processed

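The deposited tables hold whole-number counts of transcripts per gene and cell, made by the authors from their images, and 12 deposited lists give the position of each transcript in an unstated coordinate unit. How cells were outlined, and the genome build, are not given in the sources used here. The 3 genes, the gene lists and the tests were chosen with earlier results of these data known. Counts were summed over the cells of a section (24 h: over both sections), and the 99 of 100 genes that reached 10 counts in 2 or more of the 12 libraries entered edgeR 4.0.16 (R 4.3.3, robust quasi-likelihood fit, TMM factors, 5 residual degrees of freedom). P-values were adjusted by Benjamini-Hochberg over all 99 genes, with a threshold of 0.05. Square tiles 400 coordinate units wide that held 50 or more transcripts were ranked by 9 central and 6 portal genes, without the gene tested. The log2 ratios of the central to the portal of 3 bins (pseudocount 0.5) of the 62 genes that reached 500 transcripts in each section were fitted with limma 3.58.1. Lobule values for 14 d section 3 were not analysed here in the main setting. Permutation and sign-flip tests were exact and two-sided (scipy 1.17.1). The scripts were tested on simulated data. Deviations of same-numbered sections from the mean of their time gave 12 correlations from -0.51 to 0.21. At times with 2 sections these deviations mirror each other, so that numbers 1 and 2 repeat one value and the check is weak. Replicate numbers were not taken as pairs. The named genes were the 3 members, the listed mitochondrial genes in the panel, and the 3 most alike genes by library and by tile. Alternatives were other scalings, DESeq2 1.42.0, no filter, all listed transcripts, slide and replicate terms, other tiles and totals, and each section left out.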

Additional observations from a re-analysis of the deposited data

How the results depend on the processing

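The log2 fold changes of the 3 genes followed the scaling first. With total counts in place of TMM factors they turned in sign for Atp5a1 at 24 h, 48 h, 72 h and 3 mo (0.089, 0.28, 0.45 and 0.53 against 0 h), for Cpt2 at 48 h, 14 d and 3 mo (0.61, 0.35 and 0.38) and for Uqcrh at 24 h and 14 d (0.22 and 0.52). They also turned for Atp5a1 and Cpt2 between 48 h and 24 h (0.19 and 0.17) and Atp5a1 between 6 mo and 14 d (-0.44). On that scale Uqcrh at 48 h (1.07), Cpt2 at 48 h and 72 h (0.61 and 0.85), Atp5a1 at 14 d (0.85), Uqcrh at 72 h against 48 h (-1.19), and the comparison of all times for Atp5a1 and Cpt2 (adjusted p = 0.0195 and 0.0278) passed, and Cpt2 at 14 d against 72 h (-0.49) did not. Scaled by cell number, the sign turned for Atp5a1 at 24 h, 48 h, 72 h and 3 mo (0.16, 0.31, 0.94 and 0.54), Cpt2 at 48 h, 14 d and 3 mo (0.64, 1.08 and 0.39), Uqcrh at 24 h, 72 h and 14 d (0.29, 0.38 and 1.25), Atp5a1 and Cpt2 between 48 h and 24 h (0.15 and 0.13), as well as for Cpt2 and Uqcrh between 3 mo and 14 d (-0.68 and -0.54) and Atp5a1 between 6 mo and 14 d (-1.51). Calls gained per cell without a change of sign were Uqcrh at 48 h (1.11), Cpt2 at 72 h (1.34), Atp5a1 at 14 d (1.58), Atp5a1 at 3 mo against 14 d (-1.04), Cpt2 at 6 mo against 14 d (-1.78) and the comparison of all times for Atp5a1 and Cpt2 (adjusted p = 0.000536 and 0.00451). Those lost were Uqcrh at 6 mo (-1.50) and Cpt2 at 14 d against 72 h (-0.27). These scales move all genes, as the median shifts show.

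Other settings of the count test moved less, and the cause was not tested. TMM factors without Cyp2e1 gave -0.056 for Atp5a1 at 14 d and an adjusted p of 0.0316 for Cpt2 over all times. DESeq2 gave -0.050 for Cpt2 at 24 h and called Uqcrh at 72 h against 0 h (-0.74) and against 48 h (-0.96). Without the filter on low counts Atp5a1 at 3 mo was 0.012 and Uqcrh at 72 h against 48 h was called (-0.94). All listed transcripts, inside or outside cells, gave -0.062 for Cpt2 at 24 h, 0.033 for Atp5a1 at 3 mo and 0.0038 for Atp5a1 between 48 h and 24 h. That setting holds the 12 sections with lists and so also leaves out 14 d section 3. With the 24 h sections separate, Uqcrh at 72 h against 48 h was called (-0.93), Atp5a1 at 6 mo against 14 d was -0.13 and Cpt2 over all times had an adjusted p of 0.016. With the 14 d sections as 1 library, Cpt2 at 24 h was -0.15 and all calls of the members were lost, namely Uqcrh at 6 mo against 0 h (-1.30) and against 14 d (-1.08), Cpt2 at 14 d against 72 h (-0.66) and Uqcrh over all times (adjusted p = 0.229). With the replicate block, Cpt2 at 14 d against 72 h was -0.78 with an adjusted p of 0.0702, and no other call of the members that this fit holds changed. With slide as a term, which leaves the 14 d comparisons without a value, Cpt2 at 24 h was -0.013, Atp5a1 at 3 mo was 0.037 and at 6 mo -0.050, and Uqcrh at 6 mo stayed called (-1.39, adjusted p = 0.017). Slide 1 alone gave 0.019 for Cpt2 at 48 h, 0.038 and 0.24 for Atp5a1 at 72 h and 3 mo and 0.023 for Atp5a1 between 48 h and 24 h, and slide 2 alone, with no test, gave 0.016 and -0.023 for Atp5a1 at 72 h and 6 mo. Without 3 mo and 6 mo, chosen after seeing the data, Uqcrh at 24 h was 0.0074 and Uqcrh at 72 h against 48 h was called (-0.95).

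Lobule values depended on the totals. With Spearman correlations Cpt2 was called at 24 h and 48 h (1.06 and 0.54) and Atp5a1 and Uqcrh at 6 mo were 0.099 and 0.18. Without Cyp2e1 in the totals the mean over libraries was 0.074 for Uqcrh and 0.80 for Cpt2, and Atp5a1 at 48 h against 0 h was 0.028. On that scale Uqcrh at 24 h, 48 h, 72 h and 14 d was -0.013, -0.24, -0.15 and -0.14, and Cpt2 at 48 h, 72 h and 14 d was -0.34, -0.20 and -0.22. Per tile the mean of Cpt2 was 0.076, Atp5a1 at 48 h, 72 h and 3 mo was 0.27, -0.18 and 0.079. Per tile, Cpt2 at 48 h, 72 h, 14 d and 6 mo was -0.11, -0.38, -0.32 and -0.045, and Uqcrh at 48 h, 72 h and 14 d was -0.0081, -0.33 and -0.25. Tiles of 800 units gave 0.0023 for Atp5a1 at 3 mo. The outermost of 5 bins called Cpt2 at 24 h (1.03) and Uqcrh at 48 h (0.60) and gave -0.0042 for Cpt2 at 72 h. Transcripts in cells, chosen after seeing the data, called Atp5a1 at 14 d (0.76) and gave -0.0093 and -0.053 for Cpt2 at 72 h and 6 mo. The shares of all genes called in these alternative lobule fits were not counted. With Cyp2e1 out of the totals, also chosen after seeing the data, Cpt2 in cells with Adgre1 was 0.065.

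Leaving out 1 section at a time gave these ranges where a sign or call changed. Against 0 h, Cpt2 ranged from -0.16 to 0.22 at 24 h, -0.61 to 0.085 at 48 h and -0.48 to -0.27 at 14 d, where it was called without 48 h section 2. Uqcrh ranged from -0.66 to 0.0074 at 24 h and -0.81 to -0.44 at 72 h, where it was called without either 48 h section. Atp5a1 ranged from -1.07 to -0.17 at 48 h, where it was called without 48 h section 1, and from -0.28 to 0.17 at 72 h, -0.11 to 0.23 at 14 d and -0.19 to 0.15 at 3 mo. Between times, Atp5a1 and Cpt2 ranged from -0.53 to 0.29 and -0.45 to 0.17 at 48 h against 24 h, Atp5a1 from -0.096 to 0.93 and Uqcrh from -1.22 to -0.69 at 72 h against 48 h, Cpt2 from -0.88 to -0.63 at 14 d against 72 h, and Atp5a1 from -0.13 to 0.18 and Uqcrh from -1.37 to -1.06 at 6 mo against 14 d. The adjusted p over all times ranged from 0.0171 to 0.311 for Cpt2 and from 0.00322 to 0.0515 for Uqcrh, highest without 14 d section 3, and that of Uqcrh per Atp5a1 from 0.00952 to 0.0536, highest without 48 h section 2. Lobule differences from 0 h ranged, for Atp5a1, from 0.52 to 1.13 at 24 h, 0.57 to 1.18 at 48 h, -0.077 to 0.53 at 72 h, 0.39 to 1.00 at 14 d, -0.33 to 0.28 at 3 mo and -0.46 to 0.14 at 6 mo. For Cpt2 they ranged from 0.79 to 1.08 at 24 h, 0.36 to 0.65 at 48 h, -0.12 to 0.17 at 72 h, -0.034 to 0.26 at 3 mo and -0.077 to 0.21 at 6 mo, and for Uqcrh from 0.42 to 1.01, 0.31 to 0.89, -0.22 to 0.37, 0.12 to 0.70, -0.53 to 0.055 and -0.38 to 0.20 at the 6 times in order. Without 0 h section 2, all 3 genes were called at 24 h and 48 h and Atp5a1 and Uqcrh at 14 d. The calls of the 6 other mitochondrial genes over the times, 1 higher and 10 lower, became 8 and 2 with total counts, 7 and 0 per cell and 0 and 3 with the replicate block. They became 3 lower both with the 14 d sections as 1 library and on slide 1 alone, there were up to 3 higher in the other settings, and they ranged from 1 to 7 higher and 6 to 12 lower with 1 section left out. The ratios of Cpt2 to the other 2 members, the mean lobule lean of Atp5a1, the pairwise lobule differences and 8 of the 9 marker-cell values kept their sign and their call in every setting run, and Uqcrh at 6 mo against 0 h in all but the 2 named above. Uqcrh, with as few as 1065 counts in a section, has the least depth of the 3 genes, and the limit on all values is the number of sections.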

Other observations

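Transcripts of the 3 genes lay outside the cell outlines somewhat more often than those of the panel as a whole. The outlines held 60.2% to 79.8% of all listed transcripts of a section. The share of Uqcrh inside outlines was below that of all genes by a median of 4.01 percentage points over 12 sections (differences from -9.92 to -2.0), and that of Atp5a1 by a median of 2.69 points (differences from -7.43 to -1.77). Cpt2 was lower by a median of 1.63 points, with differences from -4.56 to 1.09. From the lowest of 62 genes, the median rank over sections was 10.5 for Uqcrh, 15 for Atp5a1 and 20 for Cpt2. The complex I gene Ndufb10 had a median rank of 10. No test was run on these shares.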
